A study of Mus musculus with 16 samples.

Results

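The calcium and calmodulin dependent protein kinases were followed here as 10 genes: Camk2a, Camk2b, Camk2d, Camk2g, Camkv, Camk4, Camk1, Camk1d, Camk1g and Camkk2. Each gene was represented by the probe set whose array annotation gave its symbol and no other, and each had exactly 1 such probe set, so 10 of the 35556 probe sets and 10 of the 19938 genes tested belong to the family. Total RNA of mouse brain tumours and of normal brain had been measured on 16 Affymetrix arrays, 4 in each of 4 groups. PDGF-p53 tumours (PDGF+p53-/- in the labels) arose in mice with floxed p53 alleles after infection with a retrovirus that expressed PDGF-B and Cre recombinase from a single construct. PDGF-p53-RBPJ tumours (PDGF+p53-/-RBPjk-/-) were induced with the same virus in animals whose p53 and RBPjk alleles were both floxed. For the p53-RBPJ tumours (p53-/-RBPjk-/-), a Hes5::CreERT2 transgene deleted both genes in Hes5-expressing cells, with no virus and no added PDGF-B. The reference was brain tissue labelled as wild type for Pdgfb, Trp53 and Rbpj. Tumours were dissected by the fluorescence of a Cre-dependent GFP reporter once the mice showed symptoms, and the dissected tissue can hold host brain. The labels give neither the age of the animals nor the brain region of the normal tissue. They number the arrays of a group without stating that these are separate animals, and the p-values therefore describe array-to-array spread that may be technical.

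Calmodulin kinases are serine/threonine kinases that are switched on when calcium-loaded calmodulin binds them. CaMKII, encoded by Camk2a, Camk2b, Camk2d and Camk2g, assembles into multi-subunit rings. Its alpha and beta subunits are abundant at the synapses of forebrain neurons, while the delta and gamma subunits are found in many tissues. CaMKI and CaMKIV act in a cascade: calmodulin kinase kinases such as Camkk2 phosphorylate and activate them, and CaMKIV in the nucleus phosphorylates the transcription factor CREB.

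All values below are log2 intensities after the authors' normalization, and a difference of 1 on that scale is a doubling of intensity. Because probe sets differ in their affinity, levels were compared between groups and never between genes. A difference was called when its adjusted p in limma, fitted on all 19938 genes, was under 0.05. The comparisons of the 3 tumour types with normal brain share the same 4 normal arrays and are not independent of each other. Within a group, arrays correlated with r between 0.967 and 0.984 over genes. A principal component analysis of the arrays gave a first axis with 56.9% of the variance, which placed the normal arrays at -76.6 to -73.2, 11 of the 12 tumour arrays at 13.2 to 40.3 and replicate 3 of the PDGF-p53 tumours at -8.77. Rbpj itself lay at 7.55 to 7.88 in PDGF-p53-RBPJ tumours and at 7.64 to 7.93 in p53-RBPJ tumours, against 8.17 to 8.50 in PDGF-p53 tumours and 7.76 to 8.21 in normal brain. Pdgfb lay at 5.81 to 6.31 in PDGF-p53 tumours, 5.88 to 6.19 in PDGF-p53-RBPJ tumours, 5.23 to 5.77 in p53-RBPJ tumours and 5.69 to 6.20 in normal brain. Whether these probe sets lie in the deleted exons, or detect the viral PDGF-B, is not given in the sources used here.

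Every one of the kinases except Camk1 was lower than in normal brain in all 3 tumour types. In the PDGF-p53 arrays 9 of 10 members were called lower and 0 higher, where 31.1% of all genes were called, 17.6% lower and 13.6% higher. In the PDGF-p53-RBPJ arrays the counts were again 9 lower and 0 higher, beside 33.6% of all genes (17.9% lower, 15.7% higher). The p53-RBPJ arrays also had 9 lower and 0 higher, beside 36.8% (20.4% lower, 16.4% higher). The median difference of the 10 members was -1.09 in the PDGF-p53 arrays, -1.15 in the PDGF-p53-RBPJ arrays and -1.87 in the p53-RBPJ arrays, while medians over all genes lay between -0.04 and -0.02. Arrays did not overlap with normal brain for 9 members in PDGF-p53 (30.0% of all genes), for 10 in PDGF-p53-RBPJ (34.5%) and for 9 in the p53-RBPJ arrays (34.4%). In both PDGF-B driven types these members included Camk1, which lay above normal brain, and the rest lay below it. Camk1g was the member that overlapped in PDGF-p53, and Camk1 in p53-RBPJ. Sizes ran from under 1 log2 unit for Camkk2 to more than 3 for Camk2a, Camkv and Camk4 in all 3 tumour types. Since these are bulk tissues, fewer cells of a type and less RNA per cell cannot be told apart.

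**Figure D1:**
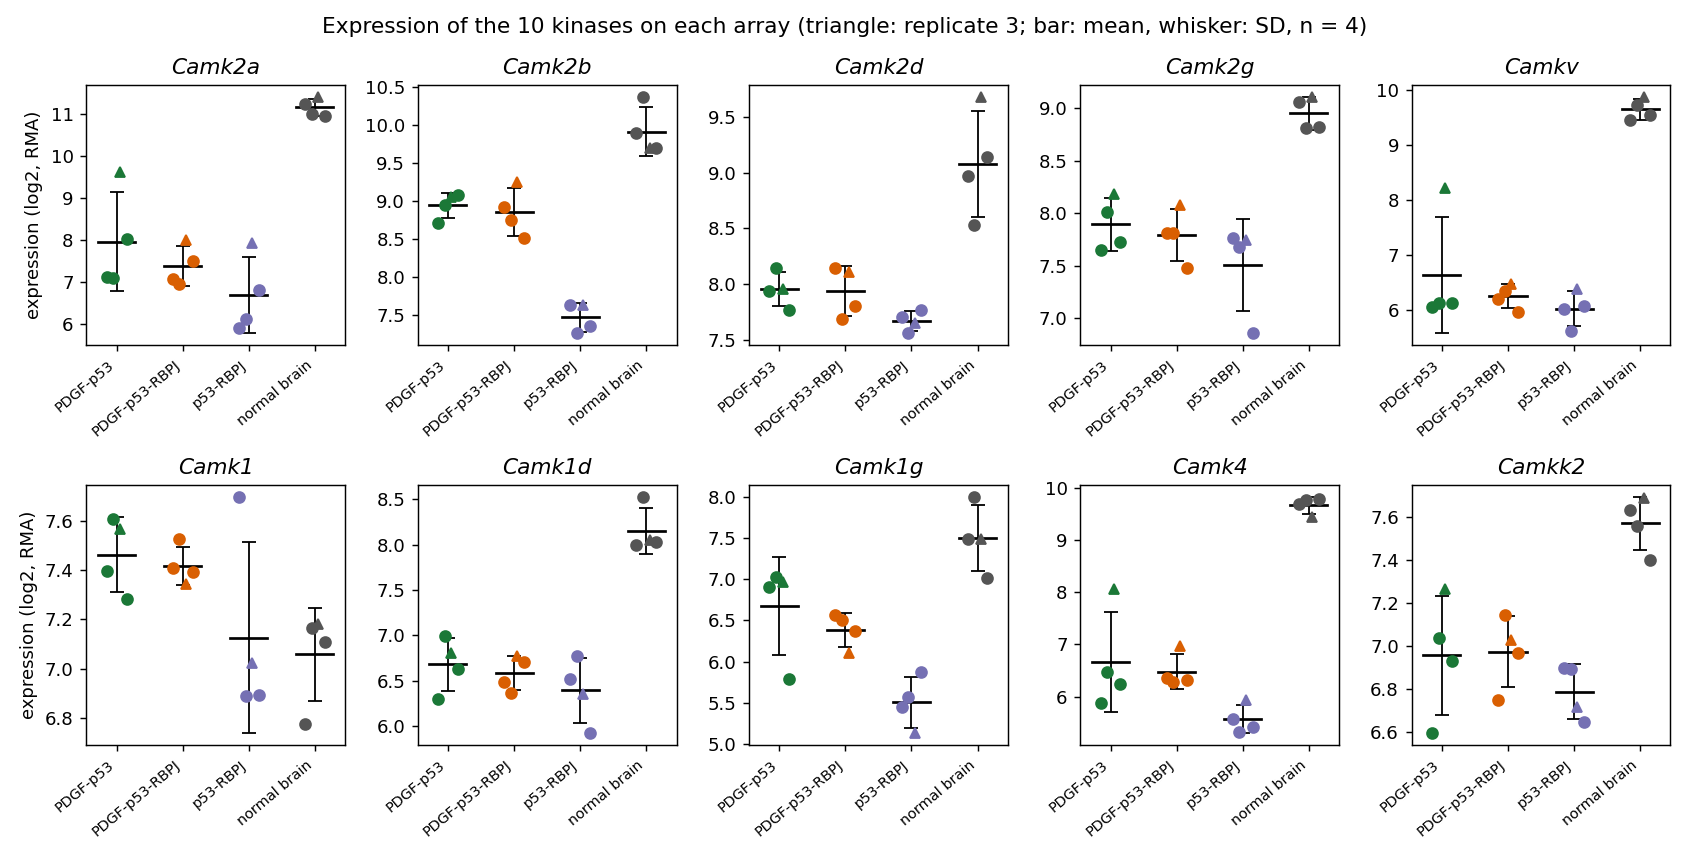
Log2 intensity (vertical axis) of the 10 calmodulin kinase genes, a panel for each gene, in the 4 arrays of each group. Points are single arrays and bars the group means. Camk2a, Camkv and Camk4 lie far below normal brain in the tumours with replicate 3 of the PDGF-p53 tumours above the rest of its group, Camk2b has its lowest 4 values in the p53-RBPJ tumours, and Camk1 is the gene that does not fall.

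Among the CaMKII subunits, Camk2a, which encodes the alpha subunit, differed most. Its values were 7.13, 7.09, 9.62 and 8.04 in the 4 PDGF-p53 tumours. They were 7.08, 6.96, 8.0 and 7.52 in the PDGF-p53-RBPJ arrays. In the p53-RBPJ arrays they were 5.91, 6.12, 7.94 and 6.83, against 11.26, 11.02, 11.42 and 10.97 in normal brain. No tumour array reached the lowest normal array, and replicate 3 was the highest in every tumour type. The difference from normal brain was -3.20 for the PDGF-p53 arrays (9.16-fold lower, adjusted p = 4.54e-05), each difference having a standard error (SE) of 0.47. It was -3.78 for the PDGF-p53-RBPJ arrays (13.7-fold lower, adjusted p = 6.64e-06) and -4.47 for the p53-RBPJ arrays (22.1-fold lower, adjusted p = 7.29e-07). Ordered by difference over all 19938 genes, Camk2a stood at rank 29 from the lowest for the PDGF-p53 arrays, rank 7 for the PDGF-p53-RBPJ arrays and rank 12 for the p53-RBPJ arrays.

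Camk2b, which encodes the beta subunit that binds actin filaments, followed another pattern across the tumour types. Its values were 8.71, 8.95, 9.05 and 9.08 in the PDGF-p53 arrays and 8.92, 8.74, 9.25 and 8.51 in the PDGF-p53-RBPJ arrays. They were 7.62, 7.26, 7.63 and 7.36 in p53-RBPJ tumours, against 9.90, 10.38, 9.70 and 9.70 in normal brain. The tumours with PDGF-B formed a middle band that touched neither the normal arrays nor those of the p53-RBPJ tumours. The difference from normal brain was -0.97 for the PDGF-p53 arrays (adjusted p = 0.000276), -1.06 for the PDGF-p53-RBPJ arrays (adjusted p = 0.000101) and -2.45 for the p53-RBPJ arrays (adjusted p = 8.8e-09), with an SE of 0.17.

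The subunits of wide tissue distribution, Camk2d (delta) and Camk2g (gamma), were lower by similar amounts in every tumour type. Camk2d had 7.94, 8.15, 7.96 and 7.77 in the PDGF-p53 arrays, 8.15, 7.69, 8.11 and 7.80 in the PDGF-p53-RBPJ arrays and 7.71, 7.56, 7.65 and 7.76 in p53-RBPJ tumours, against 8.97, 8.53, 9.68 and 9.14 in normal brain. The normal arrays were the most spread and still lay above all tumour arrays. Its differences were -1.13 for the PDGF-p53 arrays, -1.14 for the PDGF-p53-RBPJ arrays and -1.41 for the p53-RBPJ arrays, with an SE of 0.18, and the highest of the adjusted p-values was 0.000126. Camk2g had 7.65, 8.02, 8.19 and 7.72 in the PDGF-p53 arrays, 7.81, 7.81, 8.08 and 7.48 in the PDGF-p53-RBPJ arrays and 7.76, 7.68, 7.75 and 6.86 in p53-RBPJ tumours, against 9.06, 8.81, 9.11 and 8.82 in normal brain. Again no array of a tumour reached normal brain, and replicate 4 of the p53-RBPJ tumours stood below the other arrays of its group. Differences of Camk2g were -1.06 for the PDGF-p53 arrays, -1.16 for the PDGF-p53-RBPJ arrays and -1.44 for the p53-RBPJ arrays, with an SE of 0.19, and its highest adjusted p was 0.000323.

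Differences between 2 subunits taken within each array, and set to 0 at their mean in normal brain, show how unevenly the 4 genes moved. Camk2a minus Camk2g shifted by -2.14 ± 1.04 in the PDGF-p53 arrays, -2.62 ± 0.45 in the PDGF-p53-RBPJ arrays and -3.03 ± 1.04 in the p53-RBPJ arrays, against 0 ± 0.07 in normal brain (mean ± SD, n = 4 each). In every tumour array Camk2a was further below its normal brain mean than Camk2g. Camk2b minus Camk2d shifted by 0.16 ± 0.25 in the PDGF-p53 arrays, 0.08 ± 0.21 in the PDGF-p53-RBPJ arrays and -1.04 ± 0.18 in the p53-RBPJ arrays, against 0 ± 0.77 in normal brain. In the tumours with PDGF-B, Camk2b and Camk2d moved by about the same amount, and in p53-RBPJ tumours Camk2b moved further, although the normal arrays themselves ranged from -0.83 to 1.01 in this measure.

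Camkv and Camk4 changed nearly as much as Camk2a. Camkv encodes a vesicle-associated relative of the calmodulin kinases that binds calmodulin but lacks kinase activity and is found at dendritic spines. It had 6.06, 6.13, 8.23 and 6.12 in the PDGF-p53 arrays and 6.20, 6.35, 6.48 and 5.97 in the PDGF-p53-RBPJ arrays. The p53-RBPJ tumours had 6.02, 5.62, 6.39 and 6.08, against 9.47, 9.73, 9.89 and 9.55 in normal brain. All tumour arrays but replicate 3 of the PDGF-p53 tumours fell within 5.62 to 6.48, more than 2 units below normal brain. These values lay around the array medians over all probe sets, 5.97 to 6.06. Whether low intensity compressed the differences was not tested. The difference was -3.02 for the PDGF-p53 arrays (8.12-fold lower, adjusted p = 3.28e-06), with an SE of 0.35. It was -3.41 for the PDGF-p53-RBPJ arrays (10.6-fold lower, adjusted p = 7.5e-07) and -3.63 for the p53-RBPJ arrays (12.4-fold lower, adjusted p = 2.28e-07).

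Camk4, the nuclear kinase of the cascade that is known from neurons and from T cells, had 5.88, 6.47, 8.05 and 6.25 in the PDGF-p53 arrays. In the PDGF-p53-RBPJ arrays it had 6.35, 6.27, 6.97 and 6.31. The p53-RBPJ tumours had 5.58, 5.33, 5.94 and 5.42, against 9.68, 9.77, 9.43 and 9.78 in normal brain. The lowest values were those of the p53-RBPJ tumours, all under the array medians over all probe sets (5.97 to 6.06). Replicate 3 was again the highest of each tumour type. Camk4 differed from normal brain by -3.00 in the PDGF-p53 arrays (8.02-fold lower, adjusted p = 1.63e-06), with an SE of 0.32. The difference was -3.19 in the PDGF-p53-RBPJ arrays (9.11-fold lower, adjusted p = 7.3e-07) and -4.10 in the p53-RBPJ arrays (17.1-fold lower, adjusted p = 2.92e-08).

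The CaMKI genes went different ways. Camk1, the alpha isoform with a wide tissue distribution, had 7.40, 7.61, 7.56 and 7.28 in the PDGF-p53 arrays and 7.41, 7.53, 7.34 and 7.39 in the PDGF-p53-RBPJ arrays. It had 7.70, 6.89, 7.02 and 6.89 in p53-RBPJ tumours, against 6.78, 7.17, 7.18 and 7.11 in normal brain. The arrays of both PDGF-B driven types lay just above all normal arrays, and 3 of the p53-RBPJ arrays lay among the normal ones with replicate 1 above them. The differences of 0.40 for the PDGF-p53 arrays (adjusted p = 0.0648), 0.36 for the PDGF-p53-RBPJ arrays (adjusted p = 0.0977) and 0.07 for the p53-RBPJ arrays (adjusted p = 0.79), with an SE of 0.16, did not pass the test. Without replicate 1 of the p53-RBPJ tumours, which enters the shared estimate of the spread, PDGF-p53 passed (adjusted p = 0.0136) and so did PDGF-p53-RBPJ (adjusted p = 0.0248), both at the same size, and the p53-RBPJ difference became -0.12.

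Camk1d, the delta isoform, lay at 6.30, 6.99, 6.80 and 6.63 in the PDGF-p53 arrays, 6.49, 6.37, 6.77 and 6.70 in the PDGF-p53-RBPJ arrays and 6.52, 6.78, 6.36 and 5.92 in p53-RBPJ tumours, against 7.995, 8.53, 8.05 and 8.03 in normal brain. Its differences from normal brain were -1.47 for the PDGF-p53 arrays (adjusted p = 8.56e-06), -1.57 for the PDGF-p53-RBPJ arrays (adjusted p = 3.58e-06) and -1.76 for the p53-RBPJ arrays (adjusted p = 7.01e-07), with an SE of 0.19. The tumour types overlapped each other almost completely, and replicate 3 of the PDGF-p53 tumours, high for Camk2a, Camk4 and Camkv, lay inside the range of its group here. Camk1 minus Camk1d within arrays shifted by 1.87 ± 0.22 in the PDGF-p53 arrays, 1.93 ± 0.26 in the PDGF-p53-RBPJ arrays and 1.82 ± 0.46 in the p53-RBPJ arrays, against 0 ± 0.24 in normal brain (mean ± SD, n = 4 each).

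Camk1g, the gamma isoform that is anchored to membranes by lipid groups, had 6.91, 7.03, 6.97 and 5.79 in the PDGF-p53 arrays and 6.56, 6.51, 6.10 and 6.38 in the PDGF-p53-RBPJ arrays. It had 5.45, 5.57, 5.14 and 5.87 in p53-RBPJ tumours, against 7.48, 8.0, 7.49 and 7.02 in normal brain. The p53-RBPJ values were under the array medians over all probe sets (5.97 to 6.06). The PDGF-p53 arrays just overlapped the normal ones, with replicate 4 far below the other 3. The difference in PDGF-p53 tumours was -0.83 ± 0.25 (SE, adjusted p = 0.0174), and it was no longer called without that array (-0.53, adjusted p = 0.0607) or without replicate 2 of normal brain (-0.66, adjusted p = 0.069). For the PDGF-p53-RBPJ arrays the difference was -1.11 (adjusted p = 0.00205) and for the p53-RBPJ arrays -1.99 (adjusted p = 5.35e-06), with no overlap in either.

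Camkk2, the upstream kinase of CaMKI, CaMKIV and the energy sensor AMPK, showed the smallest of the called differences in each tumour type. It had 6.59, 7.04, 7.26 and 6.93 in the PDGF-p53 arrays, 6.75, 7.14, 7.03 and 6.97 in the PDGF-p53-RBPJ arrays and 6.90, 6.89, 6.72 and 6.65 in p53-RBPJ tumours, against 7.63, 7.56, 7.69 and 7.40 in normal brain. All normal arrays lay above all tumour arrays. Its differences were -0.61 for the PDGF-p53 arrays (adjusted p = 0.00208), -0.60 for the PDGF-p53-RBPJ arrays (adjusted p = 0.00229) and -0.78 for the p53-RBPJ arrays (adjusted p = 0.000175), with an SE of 0.14.

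**Figure D2:**
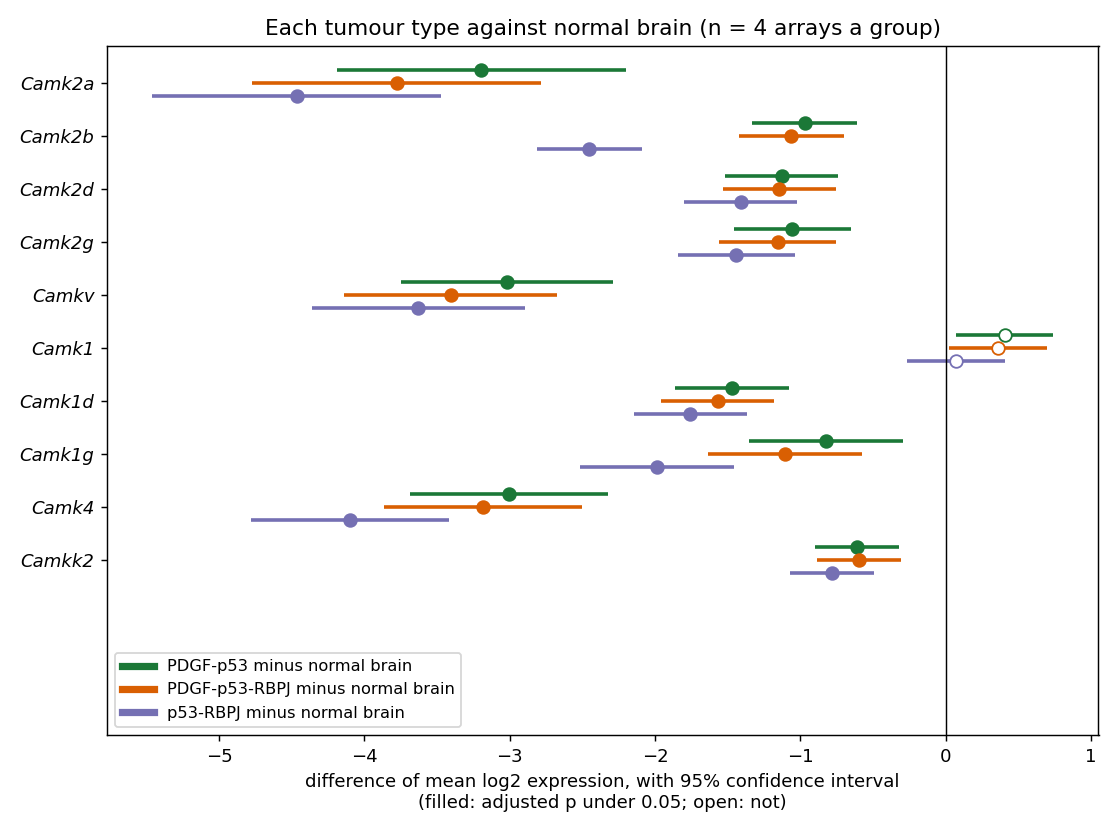
Difference in log2 intensity, tumour minus normal brain (horizontal axis), for each of the 10 genes in the 3 tumour types; points are limma estimates and bars 95% confidence intervals. Camk2a, Camkv and Camk4 lie beyond -3 in PDGF-p53-RBPJ and p53-RBPJ tumours and near -3 in PDGF-p53 tumours, Camk2b is much lower in p53-RBPJ tumours (-2.45) than in the others, and Camk1 is the gene to the right of 0.

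By the group means, Camk2a, Camk2b, Camk2d, Camk2g, Camkv, Camk4, Camk1d and Camk1g shared the order PDGF-p53, PDGF-p53-RBPJ, p53-RBPJ among the tumours, from high to low, with normal brain above all of them. For all 10 genes the neighbours PDGF-p53 and PDGF-p53-RBPJ overlapped, and their difference did not pass the test. For Camkk2 the PDGF-p53-RBPJ tumours had the highest tumour mean. Camk1 had the order PDGF-p53, PDGF-p53-RBPJ, p53-RBPJ and normal brain, where the last 2 overlapped.

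Cell type markers and proliferation genes also differed from normal brain, in both directions. The 8 general neuron markers (Rbfox3, Snap25, Syt1, Map2, Nefl, Nefm, Stmn2 and Eno2) were all called lower in every tumour type (7 of 8 in p53-RBPJ tumours, without Map2, when arrays were centred on housekeeping genes), with medians of -2.68 for the PDGF-p53 arrays, -2.65 for the PDGF-p53-RBPJ arrays and -3.72 for the p53-RBPJ arrays. Their mean was 7.75 to 9.08 in the PDGF-p53 arrays, 7.62 to 8.86 in the PDGF-p53-RBPJ arrays and 6.88 to 8.22 in the p53-RBPJ arrays, against 10.64 to 10.87 in normal brain. No marker was at 0, since an array always returns an intensity. The 9 housekeeping genes used for the centring were not constant themselves. Against normal brain 2 of 9 were called higher in every tumour type. Called lower were 4 of 9 for the p53-RBPJ arrays and 3 of 9 for either PDGF-B driven type. Their differences ran from -1.20 to 1.27, and 0 of 9 were called between tumour types. What part they have in calls that changed with the centring was not tested. Of the excitatory neuron markers 4 of 5 were called lower in both PDGF-B driven types and 5 of 5 in p53-RBPJ tumours, or 3 of 5 with housekeeping centring. Inhibitory neuron markers (6 of 6), oligodendrocyte markers (5 of 5) and astrocyte markers (5 of 6) were called lower in each tumour type. The oligodendrocyte precursor markers were called higher (6 of 6, medians of 1.69 to 2.21 over the tumour types), and so were the proliferation genes (5 of 5, medians of 4.07 to 4.43). Of the microglial markers 6 of 6 were called lower in p53-RBPJ tumours, against 0 of 6 in either PDGF-B driven type, and with housekeeping centring 3 of 6 were called in p53-RBPJ tumours. Of the endothelial markers 1 of 6 was called lower in each PDGF-B driven type. In p53-RBPJ tumours 2 of 6 were called lower and 1 higher, and the medians of the 3 types were -0.17 to 0.03. What part all these markers have in the kinase differences was not tested.

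The tumour array with the highest neuron marker mean was replicate 3 in each type, at 9.08 for PDGF-p53, 8.86 for PDGF-p53-RBPJ and 8.22 for p53-RBPJ. The same 3 arrays had the highest Camk2a, Camk4 and Camkv of their groups. Replicate 3 of the PDGF-p53 tumours also stood above its group for other brain cell markers. The mean of its oligodendrocyte markers was 8.59, where the other arrays of the group had 6.06 to 7.13, against 8.33 to 9.75 in normal brain. The mean of its astrocyte markers was 9.22, with 7.61 to 8.31 in the others, against 9.49 to 9.68 in normal brain. The part of these cell types in the kinase values was not tested. In the PDGF-p53 group the gap was widest: Camk2a was 9.62 in replicate 3, against a median of 7.13 in the others, Camk4 8.05 against 6.25 and Camkv 8.23 against 6.12. Leaving this array out, the differences of the PDGF-p53 tumours from normal brain were -3.74 for Camk2a, -3.47 for Camk4 and -3.55 for Camkv, and those of Camk2b (-1.01) and Camk1d (-1.51) hardly moved. The count of members called lower stayed at 9.

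**Figure D3:**
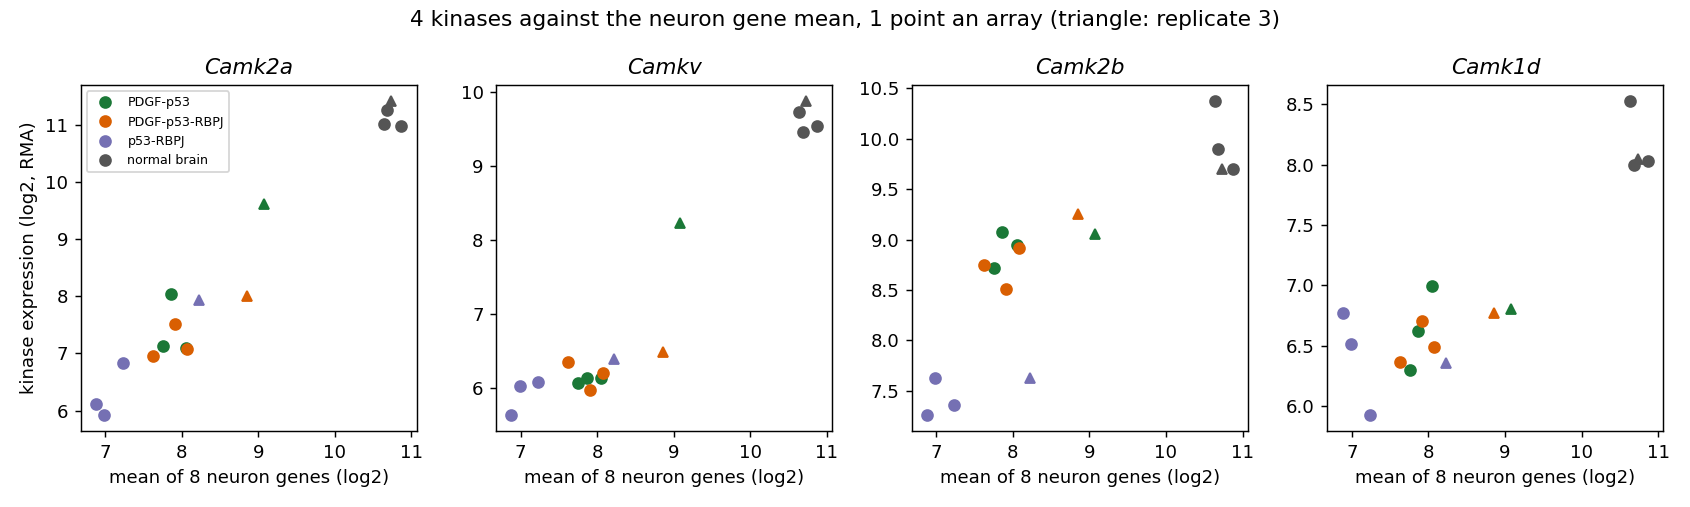
Log2 intensity of Camk2a, Camkv, Camk2b and Camk1d (vertical axes, a panel for each) against the mean log2 intensity of the 8 general neuron markers in the same array (horizontal axis); each point is an array, coloured by group, with triangles for replicate 3. Within each tumour type the array with the highest neuron marker mean has the highest Camk2a and Camkv. The 4 p53-RBPJ arrays lie below the PDGF-B driven tumours for Camk2b.

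Loss of RBPJ, the DNA-binding partner of the Notch receptors, was tested on the PDGF background by setting PDGF-p53-RBPJ against PDGF-p53 tumours. Not a single kinase was called: 0 of 10 passed in limma, 0 had an unadjusted p under 0.05 and 0 had arrays without overlap, while 0.0201% of all genes were called (0.00502% lower and 0.0150% higher) and 3.17% had no overlap. The differences ran from -0.58 for Camk2a (95% confidence interval -1.58 to 0.41) to 0.02 for Camkk2 (-0.27 to 0.30), with a median of -0.10. For Camk2b the difference was -0.09 (-0.45 to 0.27), for Camk1d -0.10 (-0.49 to 0.29) and for Camk4 -0.18 (-0.87 to 0.50). These intervals leave room for changes in either direction, widest for Camk2a and Camkv (-1.12 to 0.34). Without replicate 3 of the PDGF-p53 tumours, the sign of Camk4 (0.28) and Camkv (0.14) turned, and neither was called.

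The p53-RBPJ tumours, which lack the PDGF-B virus and were started in Hes5-expressing cells, were set against PDGF-p53-RBPJ tumours; here PDGF-B and the way of induction cannot be told apart. Camk2b was the 1 member called, as lower, and 0 were called higher; of all genes 3.27% were called (2.63% lower and 0.637% higher). Its 4 p53-RBPJ arrays, 7.26 to 7.63, lay below the 4 PDGF-p53-RBPJ arrays, 8.51 to 9.25. The difference was -1.39 ± 0.17 (SE, 95% confidence interval -1.75 to -1.03, adjusted p = 0.000651), which is 2.62-fold lower and rank 84 of 19938 from the lowest. Camk1g (-0.88, adjusted p = 0.0648) and Camk4 (-0.91, adjusted p = 0.143) also had arrays that did not overlap, and 4 arrays against 4 give these an exact permutation p (two-sided) of 0.0286, the lowest possible. In all, 3 of 10 members lacked overlap, beside 9.69% of all genes. Both were called in a fit of these 2 groups alone (adjusted p = 0.0284 for Camk1g and 0.0356 for Camk4). All 10 differences were negative, with a median of -0.29.

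Against PDGF-p53 tumours, from which the p53-RBPJ tumours differ in PDGF-B, RBPJ and induction together, 2 of 10 members were called lower, and 0 higher, beside 5.54% of all genes called (3.61% lower and 1.93% higher). Camk2b differed by -1.48 ± 0.17 (SE, 95% confidence interval -1.84 to -1.12, adjusted p = 0.000289), 2.79-fold lower and rank 86 of 19938. Camk1g differed by -1.16 ± 0.25 (SE, adjusted p = 0.0127), with replicate 4 of the PDGF-p53 tumours (5.79) inside the p53-RBPJ range of 5.14 to 5.87. In a fit of these 2 groups alone its adjusted p was 0.0675, and without that array the difference was -1.46. Camk4 (-1.10, adjusted p = 0.056) and Camk2a (-1.27, adjusted p = 0.132) missed the threshold. Of 24 alternative fits, 21 left Camk4 and 22 left Camk2a uncalled. With the replicate number as a block in limma, both were called (adjusted p = 0.0331 for Camk4 and 0.0183 for Camk2a). Camk4 was called without replicate 1 of the PDGF-p53 tumours (adjusted p = 0.0166) and Camk2a without replicate 3 of the p53-RBPJ tumours (adjusted p = 0.0478). Camk1 (-0.34 with all arrays) was called without replicate 1 of the p53-RBPJ tumours, at -0.53 (adjusted p = 0.0227). Camk2d had no overlap at a difference of -0.28 (adjusted p = 0.462), so 2 members were without overlap, beside 9.75% of all genes.

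Some neuron markers were also lower in p53-RBPJ tumours. Of the 8, Eno2 (-0.95) and Nefm (-1.48) were called lower against PDGF-p53-RBPJ tumours, where 6 were negative (median -0.93, highest 0.21). The same 2 were called against PDGF-p53 tumours, where 7 were negative (median -1.01, highest 0.016). With housekeeping centring 1 (Nefm) was called in the first comparison and 0 in the second. In the same 2 comparisons 0 of 5 excitatory neuron markers were called, with medians of -0.06 and -0.55. Of the inhibitory neuron markers 0 of 6 were called, with medians of -0.37 and -0.26. Replicate 3 of the p53-RBPJ tumours had a neuron marker mean of 8.22 and Camk2b at 7.63. The other arrays of that group had neuron marker means of 6.88 to 7.23 and Camk2b at 7.26 to 7.62. The 8 arrays of tumours with PDGF-B had neuron marker means of 7.62 to 9.08 and Camk2b at 8.51 to 9.25. Microglial markers had medians of -0.50 and -0.57 and astrocyte markers medians of -0.65 and -0.87 in the same comparisons, with 1 of 6 in each comparison called lower for microglia, and 1 and 3 of 6 for astrocytes. With housekeeping centring the counts against PDGF-p53 tumours were 0 for microglia and 2 for astrocytes. Their part in the kinase differences was not tested.

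**Figure D4:**
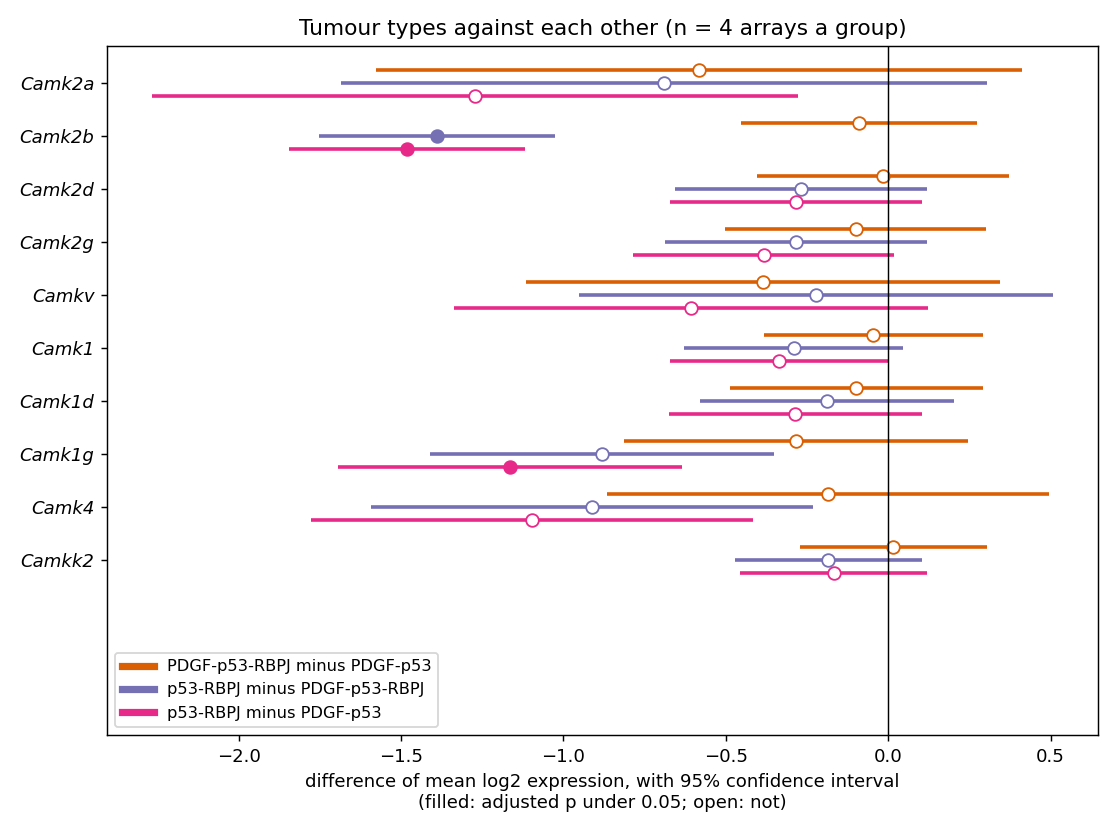
Difference in log2 intensity between tumour types (horizontal axis) for the 10 genes: PDGF-p53-RBPJ minus PDGF-p53, p53-RBPJ minus PDGF-p53-RBPJ, and p53-RBPJ minus PDGF-p53; points are limma estimates, bars 95% confidence intervals, and filled points passed an adjusted p of 0.05. Camk2b stands at -1.39 and -1.48 in the comparisons of the p53-RBPJ tumours, Camk1g is called in the last, and none is called between the PDGF-B driven types.

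Promoter sequences are shown for Camk2b and Camk1g, called lower in p53-RBPJ than in PDGF-p53 tumours, and for Camkv, which fell in all 3 types. They are the 100 bases before the start of transcription in the RefSeq promoter table of build GRCm38.p6, written 5′ to 3′ on the strand of the gene. Capitals mark every CG pair and the letters TGGGAA, the core of the sequence that RBPJ binds, searched on both strands.
Camk2b, chr11:6065749-6065848, minus strand: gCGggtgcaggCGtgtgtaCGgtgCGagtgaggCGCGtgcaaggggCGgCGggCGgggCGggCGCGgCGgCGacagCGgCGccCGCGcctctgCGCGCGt
Camk1g, chr1:193370283-193370382, minus strand: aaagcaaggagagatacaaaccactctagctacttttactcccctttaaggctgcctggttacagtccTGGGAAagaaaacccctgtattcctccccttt
Camkv, chr9:107935820-107935919, plus strand: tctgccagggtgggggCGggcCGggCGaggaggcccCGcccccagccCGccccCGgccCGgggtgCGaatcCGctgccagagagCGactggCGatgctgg

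The 3 stretches differ widely in CG pairs. Camk2b holds 21, a number that 0.423% of all promoters reach or exceed in the same 100 bases. Camkv holds 11 (reached or exceeded by 15.1%) and Camk1g holds 0 (as few in 20.7%), where the median promoter has 3. Searched over the whole window of 250 bases before to 50 after the start, TGGGAA was present in 25.6% of 32851 promoters. Of the 7 kinases with a promoter printed or searched here, it was found in Camk1g alone, where it begins 32 bases before the start. A match is a description of these letters, not a binding site, and its absence from a window says nothing of the factor. Camk1g was lower in PDGF-p53-RBPJ than in PDGF-p53 tumours by -0.28 with an interval of -0.81 to 0.25 and was not called.

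The partners of the kinases were examined by lists. The calmodulin genes Calm2 and Calm3, which encode identical proteins, were both called lower than in normal brain in each tumour type. Over the 3 tumour types Calm2 differed by -0.41 to -0.31 and Calm3 by -0.79 to -0.52, with p53-RBPJ the lowest for Calm3. When arrays were centred on housekeeping genes Calm2 was called in none of the 3 (adjusted p of 0.0806 to 0.542). Among 4 neuronal genes around calmodulin storage, 3 were called lower in every tumour type and 0 higher. The called ones were Nrgn (neurogranin, which holds calmodulin at low calcium; -2.13 to -1.80 over the tumour types), Pcp4 (which alters calcium binding by calmodulin; -3.11 to -2.03) and its relative Pcp4l1 (-2.96 to -2.55), each lowest in p53-RBPJ tumours. Gap43, a growth cone protein that binds calmodulin, was not called, with differences of -0.28 to 0.0037.

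Both endogenous inhibitors of CaMKII were called lower in every tumour type. Camk2n1 had 8.85, 9.56, 10.31 and 8.88 in the PDGF-p53 arrays, 8.77, 8.92, 9.13 and 9.12 in the PDGF-p53-RBPJ arrays and 8.01, 8.09, 8.87 and 8.44 in p53-RBPJ tumours, against 11.25, 10.93, 10.84 and 10.57 in normal brain. Replicate 3 was once more the highest array of each tumour type, and no tumour array reached normal brain. Camk2n1 differed by -1.50 in the PDGF-p53 arrays, -1.91 in the PDGF-p53-RBPJ arrays and -2.54 in the p53-RBPJ arrays (adjusted p from 6.27e-07 to 0.000276), and Camk2n2 by -0.72 to -0.56 over the tumour types. Between p53-RBPJ and PDGF-p53 tumours, Camk2n1 differed by -1.05 (adjusted p = 0.0269, and 0.0638 with housekeeping centring). Pnck, which encodes the beta isoform of CaMKI, was called lower in all 3, at -1.05 to -0.82.

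The opposing phosphatases moved in the same direction as the kinases. Of 4 calcineurin subunits, 3 were called lower in each tumour type and 0 higher. Ppp3ca, the alpha catalytic subunit abundant in brain, differed by -1.67 to -0.97 over the tumour types, and the regulatory subunit Ppp3r1 by -1.59 to -1.20, both lowest in p53-RBPJ tumours. Ppp3ca was also lower in p53-RBPJ tumours than in PDGF-p53-RBPJ tumours (-0.57, adjusted p = 0.0145, and 0.103 with housekeeping centring) and than in PDGF-p53 tumours (-0.70, adjusted p = 0.00253). Of the 3 calcineurin regulators 0 to 2 were called lower in a tumour type, beside 17.6% to 20.4% of all genes called lower. Of these 3, 0 were called between PDGF-p53-RBPJ and PDGF-p53 tumours. Of the phosphatases that act on CaM kinases, Ppm1e was called lower in all 3 tumour types (-1.68 to -1.19). Ppm1f was called in p53-RBPJ tumours (-0.52, though not with housekeeping centring, adjusted p = 0.151), with -0.34 and -0.33 in the PDGF-B driven types.

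AMPK, a substrate complex of Camkk2, changed in mixed directions: in each tumour type 1 of 6 subunits was called higher and 3 lower. Over the tumour types 13.6% to 16.4% of all genes were called higher and 17.6% to 20.4% lower. The count called higher is near the share over all genes. Prkab1, a beta subunit, was higher by 0.47 to 0.73, the lowest of these in p53-RBPJ tumours at an adjusted p of 0.0497. Prkaa2, a catalytic subunit, differed by -1.33 to -0.95, and the gamma subunit Prkag2 by -1.16 to -0.84, both least in p53-RBPJ tumours. Of 16 measured substrates and partners of the kinases, 12 were called lower and 1 higher in each tumour type, with medians of -1.88 to -1.48. With housekeeping centring 11 were called lower in PDGF-p53 tumours and 10 in each of the other types. The lowest were the NMDA receptor subunits Grin2b, to which CaMKII docks (-4.12 to -3.30), and Grin2a (-4.20 to -3.19), both lowest in p53-RBPJ tumours.

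Creb1, which encodes the transcription factor phosphorylated by CaMKIV, was the member called higher. It had 9.68, 9.57, 9.58 and 9.64 in the PDGF-p53 arrays, 9.63, 9.60, 9.72 and 9.86 in the PDGF-p53-RBPJ arrays and 10.16, 9.95, 10.28 and 9.91 in p53-RBPJ tumours, against 9.27, 8.997, 9.14 and 9.49 in normal brain. All tumour arrays lay above all normal arrays, by a small margin. Its differences were 0.39 for the PDGF-p53 arrays (adjusted p = 0.0192), 0.48 for the PDGF-p53-RBPJ arrays (adjusted p = 0.0053) and 0.85 for the p53-RBPJ arrays (adjusted p = 2.1e-05), and it was higher in p53-RBPJ than in PDGF-p53 tumours by 0.46 (adjusted p = 0.035). Among the same 16 genes, Syn1, a synaptic vesicle protein phosphorylated by calmodulin kinases, and Crem, a relative of Creb1, were called lower in p53-RBPJ than in PDGF-p53-RBPJ tumours (-0.98 and -0.54). Syn1 was also called against PDGF-p53 tumours (-0.86). With housekeeping centring the adjusted p of Crem was 0.086 and that of Syn1 against PDGF-p53 tumours 0.0546. Between PDGF-p53-RBPJ and PDGF-p53 tumours 0 members of these lists were called.

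Genes with profiles most like those of the kinases were found by the root mean square difference over the 16 arrays, after centring each gene on its mean. Normal brain is among these arrays, so genes that differ from it by similar amounts come out close. Shared regulation was not tested. The closest to Camk2a were Grin2b (0.32 log2 units), Rit2 (0.33) and Slc24a2 (0.34), where Camk2a itself had an SD of 1.84 over the arrays. Camk4 (SD 1.61) lay closest to Gria1, which encodes an AMPA receptor subunit (0.25), and to Rasgrp1 and Fam107a (0.29 each). Its nearest relative in the family was Camkv, at 0.33. Camkv (SD 1.55) was nearest to A830018L16Rik and Ctxn2 (0.23 each) and to Htr2c, a serotonin receptor gene (0.25).

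Camk2b (SD 0.90) had Plcb1, a phospholipase C gene, as its closest profile at 0.20, followed by Prkcb, a protein kinase C gene, at 0.27 and Tagln3 at 0.28. Within the family Camk1g was the nearest to it, at 0.46. Around Camk1g (SD 0.79) were Dock3 (0.30), Negr1 (0.33) and Ptpn5 (0.34). Camk1d (SD 0.74) was closest to Map7d2 (0.16), Pfkm and Scamp1 (0.19 each), and Camk2d (SD 0.60) to Pdxp (0.18), Hectd4 (0.20) and Tnnt2 (0.21). For Camk2g (SD 0.60) the nearest were Gm10644 (0.12), Prkacb (0.15) and Gabarapl1 (0.16). For Camkk2 (SD 0.34) they were Sec14l2 (0.11), Dlgap4 and Isca1 (0.12 each). Camk1 (SD 0.27), the member with positive differences from normal brain, lay nearest to Poglut1 (0.12), Tmem256 and Gm16062 (0.14 each). The nearest member to it, Camkk2, was 0.46 away, which is more than the SD of Camk1 itself.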

How the data were processed

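The deposited table holds log2 expression values that the authors made with RMA and the R package oligo, per the submitters' processing notes, which state no version. It has 35556 probe sets on 16 arrays, with values of 1.20 to 14.1 and array medians of 5.97 to 6.06, so no further normalization was applied. GEO's platform annotation gave 1 symbol to 21789 probe sets, several to 1621 and none to 12146. Of the probe sets with 1 symbol, 21698 had a gene identifier found in RefSeq, whose symbol was then used. For the 999 genes with several probe sets the one with the highest mean was kept, which left 19938 genes. Another 32 probe sets that list Camkv together with other genes were not used. RMA's quantile step makes the arrays' distributions alike, so values are relative within an array, and intensities near background compress large differences. The number of arrays limits the precision. The median SE of a difference was 0.15.

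Groups were compared with limma 3.58.1 (R 4.3.3) on all 16 arrays, with group as the only term, 12 residual degrees of freedom, moderated variances and Benjamini-Hochberg adjustment over all genes in each of 6 comparisons. The script was tested on simulated data. Exact permutation tests used scipy 1.17.1 and figures matplotlib 3.10.9, in Python 3.11.15. The members and gene lists were chosen with earlier results of these data known. The text names all members, and from each pathway list the called genes farthest from 0 (at most 2 a direction, all for lists of 3 or fewer); the other genes of the Ppp3 list and of the regulators are given as counts. Creb1 and Camk2n1 are shown by array, and Syn1, Crem, Gap43 and Rcan2 named, after their values were seen. For the replicate numbers, same-numbered arrays of 2 groups deviated from their group means with correlations of -0.12 to 0.18 (7 of 24 pairs above 0.1). The labels do not say whether the numbers pair the samples, and these correlations cannot settle it. The number was therefore used as a block only among the alternatives. Alternatives were each array left out, the replicate number as a block, only 2 groups in the fit, the mean of a gene's probe sets, every probe set tested, no dim genes, trended and robust moderation, housekeeping centring and array weights.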

Additional observations from a re-analysis of the deposited data

Results flagged for a closer look

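In 6 of 40 member-by-group sets of 4 arrays, 1 array stood apart from the other 3, by its gap relative to the range of the set. For a single set chance gives about 1 in 20. The 40 sets come from the same 16 arrays and are not independent. The share over all genes was not computed, so the count does not set the members apart from other genes. Camkv was 8.23 in replicate 3 of the PDGF-p53 tumours, against a median of 6.12 in the others. Camk4 was 6.97 in replicate 3 of the PDGF-p53-RBPJ tumours (median 6.31). Camk1 was 7.70 in replicate 1 of the p53-RBPJ tumours (median 6.89), and Camk2g was 6.86 in replicate 4 of that group (median 7.75). Camk1g was 5.79 in replicate 4 of the PDGF-p53 tumours (median 6.97). Camk1d was 8.53 in replicate 2 of normal brain (median 8.03).

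Tumour types differed from each other in a direct test for Camk2b and Camk1g. Camk2b was lower in p53-RBPJ than in PDGF-p53-RBPJ tumours (-1.39) and than in PDGF-p53 tumours (-1.48). Camk1g was lower in p53-RBPJ than in PDGF-p53 tumours (-1.16).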

How the results depend on the processing

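Of 24 alternatives, all kept 9 members called lower in p53-RBPJ tumours against normal brain and 0 called between PDGF-p53-RBPJ and PDGF-p53 tumours. Counts against normal brain ran from 8 to 10 in PDGF-p53 and from 9 to 10 in PDGF-p53-RBPJ tumours; Camk1g left the first, and Camk1 joined both. For p53-RBPJ against PDGF-p53-RBPJ tumours, with 1 member called, leaving out single arrays gave 1 to 2 (2 without PDGF-p53 replicate 3 or 4 or p53-RBPJ replicate 1), only these 2 groups in the fit gave 3, no dim genes 2 and array weights 3. Against PDGF-p53 tumours, with 2 called, the replicate block gave 4 (Camk2a and Camk4 joined), only 2 groups gave 1, no dim genes 3 (Camk4 joined), and leaving out single arrays 2 to 3 (3 on omitting either replicate 1 or 3 of p53-RBPJ, or replicate 1 of PDGF-p53); the block changed no other count. Camk2b was called lower in both comparisons under every alternative. The causes were not tested, apart from the fewer arrays or genes that some alternatives use. Uncalled differences turned their sign. With single arrays left out, Camk1 in p53-RBPJ tumours against normal brain ran from -0.12 to 0.15. Between PDGF-p53-RBPJ and PDGF-p53 tumours the same gave -0.11 to 0.0028 for Camk1, -0.23 to 0.0061 for Camk1d, -0.22 to 0.024 for Camk2b, -0.086 to 0.066 for Camk2d, -0.19 to 0.0058 for Camk2g, -0.45 to 0.28 for Camk4, -0.10 to 0.12 for Camkk2 and -0.58 to 0.14 for Camkv. There, housekeeping centring gave 0.027 for Camk1 and 0.056 for Camk2d, and array weights gave 0.0071 for Camk1d, 0.066 for Camk2b, 0.071 for Camk2d, 0.010 for Camk2g and 0.053 for Camk4. Housekeeping centring gave 0.016 for Camkk2 in p53-RBPJ against PDGF-p53 tumours. It moved the median of all genes by up to 0.20 (p53-RBPJ against normal brain), and the calls of all genes there from 3263 higher and 4067 lower to 5489 and 2806. In PDGF-p53-RBPJ against normal brain they moved from 3126 and 3576 to 3804 and 2745, in p53-RBPJ against PDGF-p53-RBPJ from 127 and 524 to 219 and 252, and in p53-RBPJ against PDGF-p53 from 385 and 720 to 1646 and 410. Counts over all genes ranged from 176 (without PDGF-p53-RBPJ replicate 3) to 1197 (array weights) around 651 in p53-RBPJ against PDGF-p53-RBPJ tumours, from 289 (only 2 groups) to 2056 (housekeeping centring) around 1105 in p53-RBPJ against PDGF-p53 tumours, and from 2 to 7 around 4 in PDGF-p53-RBPJ against PDGF-p53 tumours.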
